A study of Mus musculus with 12 samples.

Results

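Intracisternal A particles, or IAP, are endogenous retroviruses of the ERVK family, and the rows described here are the 25 repeat names that start with IAP among the 18538 repeat names counted. Of these, 8 are terminal repeats whose names start with IAPLTR, 7 are terminal repeats with other names (such as IAPEY3_LTR) and 10 are internal parts, 9 of them ending in -int and 1, IAPLTR4_I, in _I. The names were taken by this spelling alone, and all 25 were counted often enough to be tested. The libraries held total RNA of C57BL/6 mouse embryos at the 2-cell stage, 1.5 days after fertilization, 6 libraries from Kdm4a knockout embryos (KO, m-/p-) and 6 from the group called WT (m+/p-). KO embryos came from Kdm4a knockout oocytes and WT embryos from wild-type oocytes. Sperm from Kdm4a knockout males was used for both, so the paternal allele was lacking in both groups and the groups differed in the maternal allele and in the product stored in the oocyte. KDM4A, the protein of this gene, takes methyl groups off histone H3. The labels place embryos in individual tubes and give neither the embryos per library nor the females that gave the oocytes, so the p-values measure the spread between these libraries, which may in part be technical.

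A complete IAP copy consists of an internal part, which encodes the structural protein Gag and the enzymes of reverse transcription, between a terminal repeat on each side. The terminal repeat holds the promoter and the polyadenylation signal, and the transcript begins in one terminal repeat and ends in the other. Many copies in the mouse genome have lost the internal part by recombination and remain as single terminal repeats. In somatic cells IAP copies are known to be kept silent by DNA methylation and by methylation of histone H3, and IAP transcripts are known from oocytes and early mouse embryos. IAPEz-int is the internal part of the type with the most recent insertions, and the IAPLTR1 and IAPLTR2 names are terminal repeats found beside it.

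Total counts ran from 7952526 to 16493286 in KO libraries and from 10946392 to 18902360 in WT libraries, with 33101 to 65865 counts on IAP names in KO and 37833 to 94750 in WT. The labelled stage was set beside its marker, with no library of another stage to compare. MERVL-int, the retrovirus whose transcripts mark the 2-cell embryo, ranked between 3 and 4 among all repeat names in KO libraries and between 1 and 3 in WT libraries. Its level was itself lower in KO, at 32176 ± 8631 normalised CPM in KO and 66062 ± 14862 in WT (SD, n = 6 each). The deposited rows hold repeats and no gene, so the level of Kdm4a was not analysed here. In a principal component analysis, WT replicate 2 stood away from the rest on component 1 (21.7% of variance), as did KO replicate 5, which had the fewest counts, on component 2 (12.2%). Levels are given as normalised CPM, that is, CPM values after correction for composition by edgeR's TMM factors, which lay between 0.978 and 1.26 in KO and between 0.767 and 0.977 in WT. LTR retrotransposons as a class took 44.2% to 51.7% of the counts in KO and 54.1% to 59.6% in WT, and the part of this shift in the IAP values was tested only by changing the scaling. A count sums all copies of a name in the genome, so levels are compared between groups and not between names. Each level is relative to the rest of its library, so less IAP RNA and more of other RNA cannot be told apart. The counts give neither the RNA per cell nor the cells per library.

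In KO embryos 2 IAP terminal repeats were lower than in WT embryos, IAPLTR2a and IAPLTR2_Mm, and the other 23 names did not pass the test (edgeR quasi-likelihood test, Benjamini-Hochberg adjusted p under 0.05 over 3312 tested repeats). No IAP name was called higher by edgeR, DESeq2 or limma-voom, and none was higher at an unadjusted p under 0.05 in edgeR, against 5.5% of all tested repeats. Over all tested repeats edgeR called 1.27% lower (42 names) and 0.151% higher (5 names), and over the LTR class it called 4.08% lower. DESeq2 called 5 IAP names lower (3.83% of all tested repeats) and limma-voom with quality weights the same 2 as edgeR (1.9% of all). Both IAP calls were terminal repeats of the IAPLTR2 type, and none of the 10 internal parts was called.

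IAPLTR2a, a terminal repeat of the IAPLTR2 type, had a lowest, median and highest level of 39.0, 52.9 and 66.2 normalised CPM in KO libraries, against 73.9, 98.5 and 138.5 in WT libraries. No KO library reached the lowest WT library, a separation that 1.39% of all tested repeats showed in this direction. The means were 53.1 ± 10.5 normalised CPM in KO and 99.5 ± 22.6 in WT (SD, n = 6 each). The log2 fold change was -0.91 ± 0.16 (standard error), and the edgeR adjusted p was 0.0159. The call held in all 23 alternative analyses, with log2 fold changes between -0.98 and -0.63. The stage markers MERVL-int and MT2_Mm, the terminal repeat of MERVL, were lower by about as much, with log2 fold changes of -1.04 and -0.92 (adjusted p = 0.0159 and 0.0229 in edgeR), and their part in the IAPLTR2a result was not tested. MTA_Mm, MTA_Mm-int and ORR1A0, taken as repeat RNA stored in the oocyte, had log2 fold changes of -0.43, -0.43 and -0.59. These did not pass (edgeR adjusted p = 0.157, 0.0901 and 0.0510). Behind the IAPLTR2a levels stood 334 to 1020 counts per KO library and 621 to 2505 per WT library.

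IAPLTR2_Mm, the second terminal repeat of this type that was called, had a lowest, median and highest level of 56.7, 66.9 and 83.7 normalised CPM in KO, against 88.1, 97.1 and 117.6 in WT. Again the groups did not overlap. Its log2 fold change was -0.51 ± 0.11 (standard error), and the edgeR adjusted p was 0.0362. The call was lost without any 1 of 10 of the 12 libraries (all but KO replicates 2 and 6, edgeR adjusted p up to 0.0929), without WT replicate 2 and KO replicate 5 together (-0.48, adjusted p = 0.102) and with no filter (adjusted p = 0.145). Under scaling by total counts the log2 fold change was -0.20 (edgeR adjusted p = 0.358), and under scaling to counts outside the LTR class -0.44 (adjusted p = 0.0670). With the replicate number as a further term it was -0.51 (edgeR adjusted p = 0.0549).

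The other IAPLTR2 names, IAPLTR2b and IAPLTR2a2_Mm, had negative fold changes that did not pass. IAPLTR2b had a lowest, median and highest level of 59.2, 71.3 and 92.1 normalised CPM in KO, against 78.7, 103.2 and 119.9 in WT. Each of the 6 KO libraries was below the WT median, and 4 were below the whole WT range. Its log2 fold change was -0.41 (standard error 0.13, edgeR adjusted p = 0.122, DESeq2 adjusted p = 0.0373). IAPLTR2a2_Mm, the IAPLTR2 name with the most counts, had 182.3, 279.8 and 356.5 normalised CPM as lowest, median and highest in KO, against 298.0, 349.8 and 400.8 in WT (log2 fold change -0.34, standard error 0.13, edgeR adjusted p = 0.247). In its case 5 KO libraries lay below every WT library and 1 within the WT range.

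**Figure D1:**
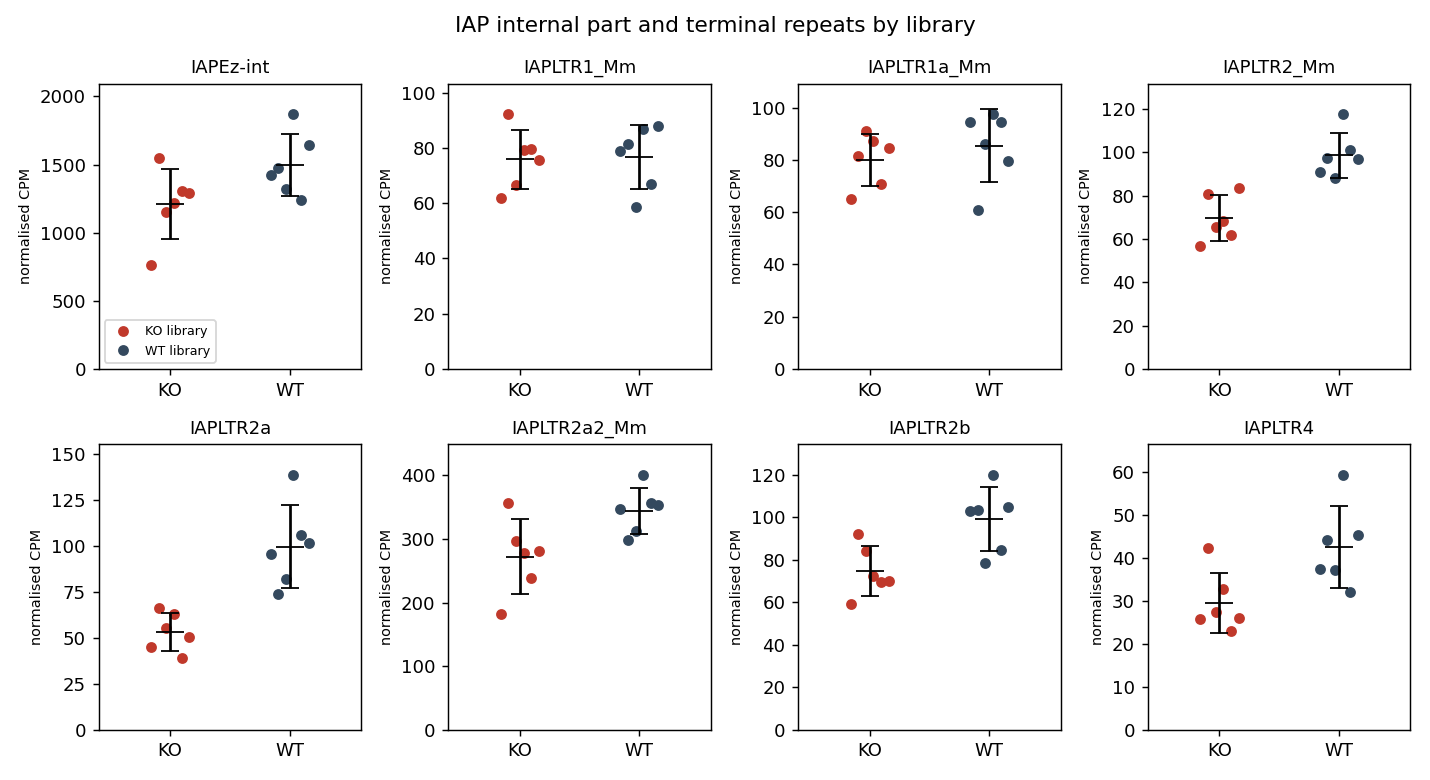
Normalised CPM (vertical axes, starting at 0) of IAPEz-int and 7 IAPLTR terminal repeats in each KO and WT library, with the mean and SD of the 6 libraries as bars. The KO and WT points of IAPLTR2a and of IAPLTR2_Mm do not overlap, and those of IAPLTR1_Mm and IAPLTR1a_Mm cover nearly the same range.

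The IAPLTR1 names gave another picture. IAPLTR1_Mm, a terminal repeat of the IAPLTR1 type, had a lowest, median and highest level of 61.7, 77.4 and 92.3 normalised CPM in KO, against 58.6, 80.1 and 88.1 in WT, so that no KO library lay below the WT range. Its log2 fold change was -0.018 ± 0.12 (standard error, edgeR adjusted p = 0.979), and it was positive under upper quartile scaling, total-count scaling and scaling to counts outside the LTR class (0.013, 0.28 and 0.043). IAPLTR1a_Mm, its close relative, had 64.9, 83.2 and 91.0 normalised CPM as lowest, median and highest in KO, against 60.7, 90.2 and 97.6 in WT (log2 fold change -0.10, standard error 0.12, edgeR adjusted p = 0.838). A miss of the threshold does not show equal levels, and the standard errors leave room for moderate changes either way.

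IAPLTR3 and IAPLTR4 complete the IAPLTR names. IAPLTR4 had a lowest, median and highest level of 22.9, 26.8 and 42.3 normalised CPM in KO, against 32.0, 40.8 and 59.3 in WT. The log2 fold change was -0.53 (standard error 0.18, edgeR adjusted p = 0.163, DESeq2 adjusted p = 0.0448). IAPLTR3 was rarer, with 59 to 292 counts per KO library and 123 to 299 per WT library. Its levels of 6.89, 9.10 and 22.5 normalised CPM as lowest, median and highest in KO spread more widely than the 14.6, 16.7 and 19.1 in WT (log2 fold change -0.49, standard error 0.27, edgeR adjusted p = 0.456).

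None of the 10 internal parts passed edgeR's test over all repeats, and DESeq2 and limma-voom called none of them either. At an unadjusted p under 0.05, 3 were lower, a rule that 7.91% of all tested repeats met. IAPEz-int, which took 32.7% ± 2.28 of the IAP counts in KO and 32.9% ± 2.67 in WT (SD, n = 6 each), had a lowest, median and highest level of 760.1, 1254 and 1546 normalised CPM in KO, against 1241, 1450 and 1869 in WT. Here 3 KO libraries lay below every WT library and the other 3 overlapped with the WT libraries. Its log2 fold change was -0.30 ± 0.14 (standard error, edgeR adjusted p = 0.380), and -0.012 under scaling by total counts.

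Among the other internal parts, IAP1-MM_I-int and IAPEY3-int had the most counts. IAP1-MM_I-int stood at 304.5, 430.6 and 504.4 normalised CPM as lowest, median and highest in KO, against 355.9, 454.9 and 679.5 in WT (log2 fold change -0.21, standard error 0.16, edgeR adjusted p = 0.630). IAPEY3-int stood at 277.9, 331.1 and 427.5 in KO, against 325.8, 388.8 and 449.9 in WT (log2 fold change -0.17, standard error 0.11, edgeR adjusted p = 0.533). The groups overlapped for both. IAPLTR3-int, the internal part that goes with IAPLTR3, gave a log2 value of -0.30 that did not pass (edgeR adjusted p = 0.330), although 4 KO libraries were below the whole WT range.

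Of the rest, IAP-d-int had the most negative log2 fold change of the internal parts, -0.42 (standard error 0.14, edgeR adjusted p = 0.171), and all 6 KO libraries lay below its WT median. IAPLTR4_I had -0.35 (standard error 0.16, adjusted p = 0.379) and IAPEY5_I-int -0.34 (standard error 0.13, adjusted p = 0.230). IAPEy-int, IAPEY4_I-int and IAPA_MM-int had -0.22, -0.17 and -0.10. Over the internal parts the log2 fold changes ran from -0.42 to -0.10, with standard errors of 0.11 to 0.20.

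The 7 terminal repeats with other names also gave no call in edgeR, and 4 of them were lower at an unadjusted p under 0.05. By the same rule 5 of the 8 IAPLTR names and 12 of all 25 IAP names were lower, against 7.91% of all tested repeats. Of the 7 terminal repeats with other names, DESeq2 called 1 lower, IAP1-MM_LTR (adjusted p = 0.0336), and limma-voom none. IAP1-MM_LTR, the terminal repeat named after the same element as IAP1-MM_I-int, had 32.6, 41.3 and 64.2 normalised CPM as lowest, median and highest in KO, against 56.0, 60.4 and 81.3 in WT (log2 fold change -0.54, standard error 0.17, edgeR adjusted p = 0.131). In 5 of the 6 KO libraries it lay below every WT library. IAPEY3_LTR, IAPEY5_LTR, IAPEY3C_LTR and IAPEY2_LTR gave fold changes of -0.57, -0.54, -0.52 and -0.25 on the log2 scale, with edgeR adjusted p of 0.175, 0.248, 0.284 and 0.459. IAPEY_LTR was the only IAP name with a positive value under TMM factors, 0.063 (standard error 0.17). IAPEY4_LTR, with 17 to 130 counts per KO library and 17 to 198 per WT library, had -0.13 with a standard error of 0.60, too wide to place it.

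**Figure D2:**
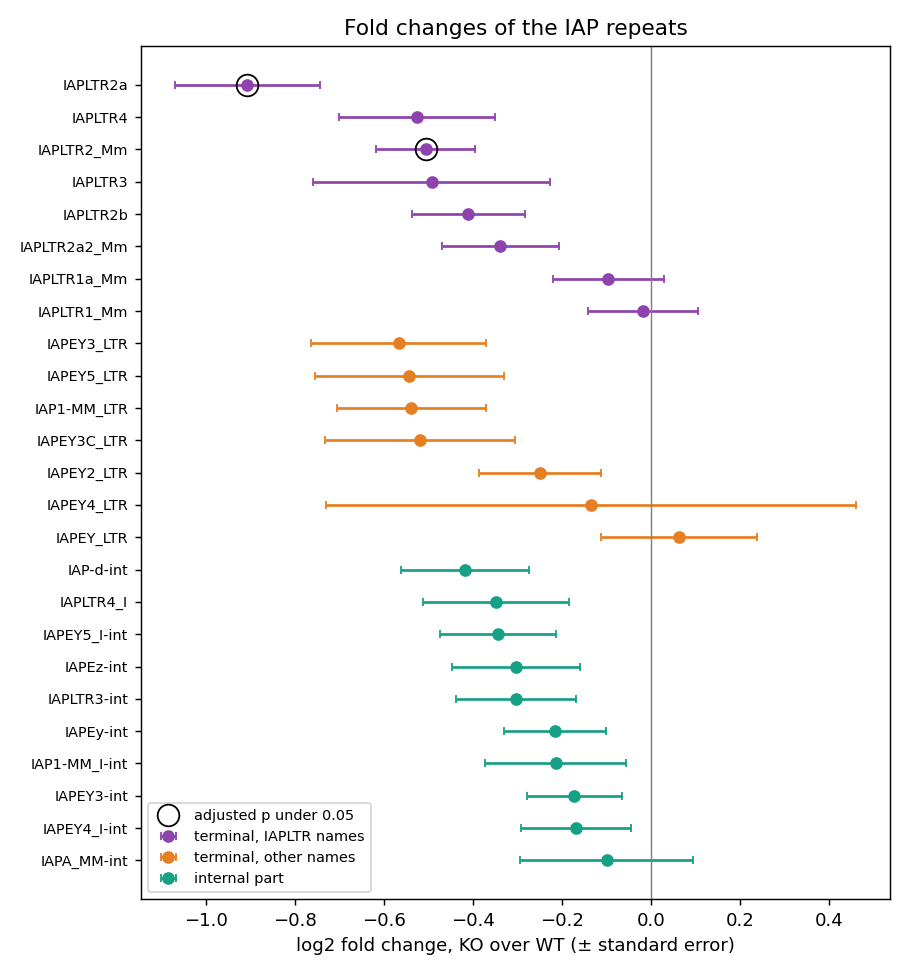
Log2 fold change of KO over WT (horizontal axis, bars are standard errors) for the 25 IAP names, in 3 blocks from top to bottom: terminal repeats named IAPLTR, other terminal repeats and internal parts. The 2 circled points, IAPLTR2a at -0.91 and IAPLTR2_Mm at -0.51, passed an edgeR adjusted p under 0.05. IAPEY_LTR alone lies above 0 with TMM factors. Under scaling by total counts, which is not drawn, 10 names had a value above 0.

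Of the 25 log2 fold changes, 24 were negative with TMM factors and 15 under scaling by total counts. With TMM factors the negative share was 48.8% over all tested repeats and 57.5% over the 612 LTR-class repeats outside IAP. The median was -0.45 for the 8 IAPLTR names, -0.52 for the 7 other terminal repeats and -0.26 for the 10 internal parts, against 0.011 for all tested repeats. Scaling by total counts moved the median of all tested repeats to 0.32, with -0.16 for the IAPLTR names, -0.25 for the other terminal repeats and 0.035 for the internal parts, of which 5 then had a positive and 5 a negative value. Relative to the median of all repeats, the IAPLTR names stood at -0.46 with TMM factors and at -0.48 with total counts, and the internal parts at -0.27 and -0.28. A change of scaling moves all fold changes by nearly the same amount, so these relative values had to stay close. Reads may be shared between names whose sequences are nearly the same, and the 25 values are therefore not independent.

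Other ERVK elements serve as a setting for these medians. The 249 tested ERVK repeats outside IAP had a median log2 fold change of -0.07. Of these, edgeR called 5 lower and 1 higher, against 1.27% and 0.151% of all tested repeats. The ETn and MusD elements (9 names) had a median of -0.22 and the MMERVK and RLTR10 elements (15 names) one of -0.25, and none of these 24 names was called by edgeR. At an unadjusted p under 0.05, 1 of the 9 and 6 of the 15 were lower in edgeR, against 7.91% of all tested repeats. DESeq2 called 1 of the 9 and 3 of the 15 lower, against 3.83% of all tested repeats. With limma-voom it was 0 of the 9 and 2 of the 15, against 1.9% of all. In these relatives the terminal repeats had a median of -0.19 (16 names) and the internal parts one of -0.23 (8 names). The gap between terminal and internal IAP medians was not tested as such.

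A ratio of terminal repeat to internal part within a library needs no scaling between libraries, and 13 such ratios were compared. They set each IAPLTR1 and IAPLTR2 name against IAPEz-int and 7 other terminal repeats against the internal part of the same name (IAPEY_LTR with IAPEy-int, which differ in a capital). The difference between the genotypes passed for 2 ratios (exact permutation test over 924 regroupings, two-sided, adjusted over the 13 ratios), and these ran in opposite directions. The log2 ratio of IAPLTR2a to IAPEz-int had a lowest, median and highest value of -5.06, -4.46 and -4.09 in KO, against -4.32, -3.96 and -3.55 in WT. Each of the 6 KO libraries was below the WT median, and 4 were below the whole WT range. The mean was -4.50 ± 0.34 in KO and -3.93 ± 0.26 in WT (SD, n = 6 each), a difference of -0.58 (exact permutation p = 0.00649, adjusted p = 0.0422).

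The log2 ratio of IAPLTR1_Mm to IAPEz-int was higher in KO, with a lowest, median and highest value of -4.11, -4.05 and -3.62, against -4.50, -4.22 and -4.17 in WT. Every KO library lay above every WT library, and the highest value was that of KO replicate 1, which had the lowest IAPEz-int level of all libraries. The mean was -3.98 ± 0.18 in KO and -4.28 ± 0.14 in WT (SD, n = 6 each), a difference of 0.31. Its exact permutation p of 0.0021645 is the smallest that 6 libraries against 6 can give (adjusted p = 0.0281). Neither name was called alone, and which of them moved depended on the scaling. The log2 fold changes of IAPLTR1_Mm and IAPEz-int were -0.018 and -0.30 with TMM factors, and 0.28 and -0.012 under scaling by total counts. The adjusted p of this ratio passed without any 1 of 11 libraries and was 0.0563 without WT replicate 4. That of IAPLTR2a to IAPEz-int passed only without KO replicate 1 or WT replicate 2 and rose to as much as 0.0844 without another library, with differences between -0.66 and -0.47. Without WT replicate 2 and KO replicate 5 together, both ratios reached the lower limit of the exact permutation test at n = 5 each (p = 0.00794), which after adjustment was 0.0516.

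The other 11 ratios did not pass, with differences from -0.37 for IAPEY3_LTR to 0.35 for IAPEY4_LTR. IAPLTR2_Mm and IAPLTR2b had differences of -0.19 and -0.09 against IAPEz-int (exact permutation p = 0.126 and 0.390), and IAPLTR2a2_Mm one of -0.04 (p = 0.703). IAPLTR1a_Mm had a difference of 0.24 (exact permutation p = 0.210). The ratios of IAPLTR2a and of IAPLTR2_Mm to IAPLTR1_Mm were looked at after these values were seen and are given with no test. On the log2 scale the lowest, median and highest values for IAPLTR2a were -1.03, -0.47 and -0.27 in KO, against -0.14, 0.38 and 0.67 in WT. IAPLTR2a and IAPLTR1_Mm had differed in opposite directions against IAPEz-int, so this separation is no further support. For IAPLTR2_Mm the values were -0.36, -0.16 and 0.15 in KO, against 0.14, 0.35 and 0.59 in WT, and the groups overlapped.

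**Figure D3:**
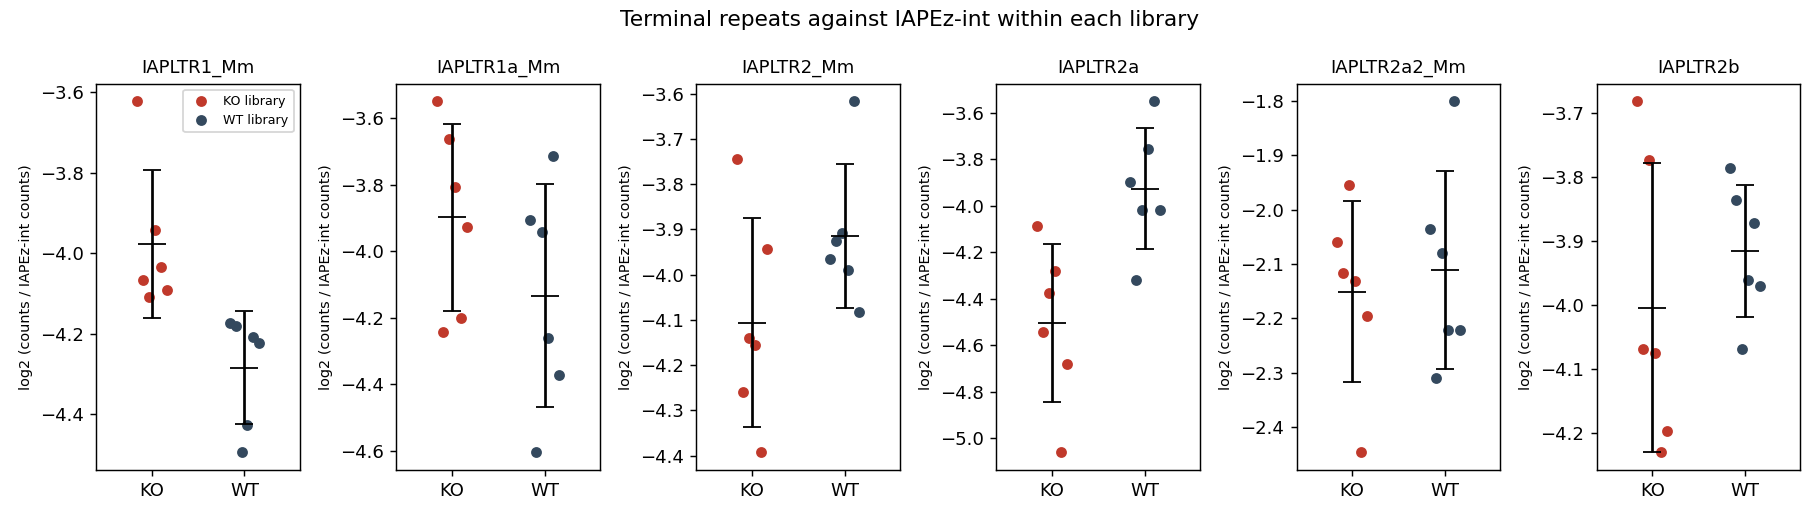
Log2 ratio of the counts of 6 terminal repeats to those of IAPEz-int (vertical axes, each with its own range) in each KO and WT library, with mean and SD as bars. For IAPLTR1_Mm every KO point lies above every WT point, while for IAPLTR2a all KO points lie below the WT median of -3.96.

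The makeup of the IAP counts gives the same data as shares, described here with no test. IAPLTR2 names took 10.6%, 13.0% and 13.6% of the IAP counts as lowest, median and highest in KO, against 12.7%, 14.4% and 15.1% in WT. IAPLTR1 names took 3.81%, 4.33% and 4.82% in KO, against 3.16%, 3.60% and 3.90% in WT. The groups overlapped in both shares. The 8 IAPLTR names together took 18.2% ± 1.45 of the IAP counts in KO and 19.1% ± 1.07 in WT, and the internal parts 76.1% ± 1.86 in KO and 74.8% ± 1.47 in WT (SD, n = 6 each).

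**Figure D4:**
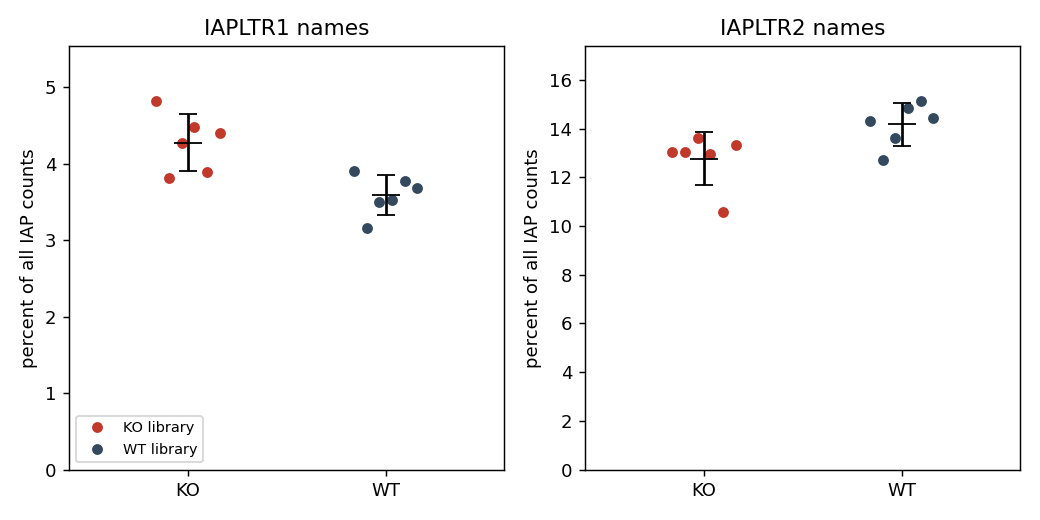
Share of all IAP counts (percent, vertical axes starting at 0) taken by the 2 IAPLTR1 names and by the 4 IAPLTR2 names in each KO and WT library, with mean and SD as bars. IAPLTR1 names averaged 4.28% in KO and 3.59% in WT, and IAPLTR2 names 12.8% in KO and 14.2% in WT.

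The share of the whole library depended on what it was set against. All IAP names together took 0.407% ± 0.0437 of all counts in KO and 0.408% ± 0.0553 in WT (SD, n = 6 each). Of the counts of the LTR class they took 0.856% ± 0.101 in KO and 0.733% ± 0.120 in WT, and of the counts outside that class 0.782% ± 0.102 in KO and 0.923% ± 0.0955 in WT. IAP counts thus made up a higher mean share of the LTR class in KO while their mean share against the counts outside it was lower.

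Within each genotype, the log2 level of the other 24 names was correlated with that of IAPEz-int, 48 relations in all. With 6 libraries the smallest possible exact permutation p is 0.00139 for Pearson's r and 0.00278 for Spearman's rho, so that 1 relation alone could not pass a correction over 48 (0.0667 and 0.133 after it). That 0 relations passed was therefore largely set by the design. At an unadjusted exact permutation p under 0.05, 6 relations in KO and 5 in WT stood out by r, and 2 in KO and 4 in WT by rho. The strongest in WT was that of IAPLTR4, chosen after its values were seen, with an r of 0.97 and a rho of 1 (exact permutation p = 0.00139 and 0.00278, the smallest possible, adjusted p = 0.0667 and 0.133).

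With all 6 libraries of each genotype, the order of the genotypes in these correlations turned with the scale. The median r was 0.67 in KO and 0.34 in WT for TMM-normalised CPM, and 0.46 in KO and 0.62 in WT for shares of all counts. For TMM-normalised CPM the median rho was 0.486 in KO and 0.229 in WT. Without the 2 KO libraries farthest from the median IAPEz-int level, the median r in KO was -0.21 for TMM-normalised CPM (KO replicates 1 and 2 left out) and 0.39 for shares (KO replicates 1 and 6 left out). In WT it was 0.41 for TMM-normalised CPM (without WT replicates 4 and 5) and 0.69 for shares (without WT replicates 4 and 6). WT was then above KO on both scales.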

How the data were processed

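Total RNA libraries were made with a stranded low-input kit that depletes ribosomal RNA, per the labels' protocols. Per the submitters' processing notes, the mm10 build, Trimmomatic 0.32 and edgeR were used; the aligner, repeat annotation, counting program and use of strand were not stated there. For each repeat name the authors deposited an estimated count, all whole numbers (0 files held another value). Groups and replicate numbers come from the sample titles.

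All repeats were tested with edgeR 4.0.16 (R 4.3.3): filterByExpr, TMM factors, quasi-likelihood F test with genotype as the only term, and Benjamini-Hochberg adjustment over 3312 rows at 0.05. DESeq2 1.42.0 and limma 3.58.1 (voom with quality weights) were alternatives. Standard errors come from the F statistic. Ratios used counts plus 0.5 and exact permutation (Python 3.11.15). At least 99.8% of each library's counts fell on tested rows.

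On simulated counts of the 3312 repeats, edgeR recovered 60.0% of 20 changed repeats of at least 10 CPM at a log2 change of 0.6, 83.3% of 30 at 1 and 100% of 31 at 2, and 5 of 100 calls were false. Over changed repeats of any level it recovered 19.4%, 42.9% and 77.9%. The counts were drawn from edgeR's own fitted dispersions. The changed repeats were picked at random in both directions, so the shift of the LTR class between the groups was not simulated. No change under 0.6 was simulated, so recovery of smaller changes, as in most IAP names, is not known. Chi-square per degree of freedom between replicates of a group lay between 25.0 and 144, so no library was a duplicate of another in its group. KO libraries were not compared with WT libraries in this way. Same-numbered KO and WT libraries had correlated deviations of -0.07 to 0.15, so the numbers were not taken to pair them.

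Members, lists and tests were chosen with earlier results of these data known. Named are the called IAP rows, IAPEz-int, the 4 terminal and 4 internal rows with the highest mean level, and members of the ratios, with the other IAP rows given briefly so that all are accounted for. No sequences of the repeats were used here.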

Additional observations from a re-analysis of the deposited data

Results flagged for a closer look

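Among 76 groups of 6 libraries (25 levels and 13 ratios in each genotype), 3 held a library far from the other 5, by Dixon's test of the gap to the nearest library; chance alone gives this in about 1 group in 20. IAPEY5_LTR stood at 53.4 normalised CPM in WT replicate 1, with the next WT library at 39.6. IAPLTR4_I stood at 171.3 normalised CPM in WT replicate 4, with the next WT library at 127.1. The log2 ratio of IAPLTR1_Mm to IAPEz-int was -3.62 in KO replicate 1, with the next KO library at -3.94; without KO replicate 1 the difference between the genotypes was 0.24 (exact permutation, adjusted p = 0.0422).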

How the results depend on the processing

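IAPLTR2a kept its direction and its call in all 23 alternatives (adjusted p from 6.81e-06 with DESeq2 to 0.0480 without KO replicate 6). The number of IAP names called lower was 1 under total-count scaling, scaling to counts outside the LTR class, no filter, the replicate block and removal of WT replicate 2 with KO replicate 5, 5 with DESeq2, and 1 to 3 without single libraries. The replicate block, a term for the replicate number, gave IAPLTR2_Mm an edgeR adjusted p of 0.0549. Deviations of same-numbered libraries were weakly correlated (-0.07 to 0.15), which does not exclude a shared batch. For the ratios, paired differences over 6 pairs cannot go below an exact p of 0.0312, so that at least 9 of the 13 ratios would have to reach it for any to pass (both called ratios had an adjusted p of 0.203). Over all repeats, lower calls numbered 17 with no filter, 64 with a minimum of 1 CPM in 6 libraries, 127 with DESeq2, 19 without both libraries that stood apart and 18 to 84 without single libraries. Higher calls numbered 357 under total-count scaling, 3 with RLE, 12 with scaling outside the LTR class, 1 with no filter, 42 with DESeq2, 8 with limma-voom, 1 with the replicate block and 1 to 9 without single libraries; lower calls under total-count scaling numbered 33.

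Total-count scaling gave medians of -0.16, -0.25 and 0.035 for IAPLTR, other terminal and internal names. It turned the sign of IAP1-MM_I-int (0.098), IAPA_MM-int (0.20), IAPEY2_LTR (0.053), IAPEY3-int (0.12), IAPEY4_I-int (0.13), IAPEY4_LTR (0.20), IAPEy-int (0.082), IAPLTR1_Mm (0.28) and IAPLTR1a_Mm (0.20), none of them called. IAPLTR1_Mm was at 0.013 with upper quartile scaling and 0.043 with scaling outside the LTR class. IAPEY4_LTR was at 0.41 with limma-voom, 0.14 with the replicate block and 0.17 without both libraries. Without single libraries, IAPEY4_LTR ran from -0.36 to 0.32, IAPLTR1_Mm from -0.084 to 0.036, IAPEY_LTR from -0.024 to 0.16, IAPA_MM-int from -0.24 to 0.017 and the ratio of IAPLTR2a2_Mm to IAPEz-int from -0.079 to 0.023. The cause was not tested.

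The number of ratios lower and the number higher in KO were each 0 without both libraries and with the replicate block (paired differences), and 0 to 1 without single libraries. The share of the internal parts, as log2 of KO over WT, was 0.25 within the LTR class and -0.21 outside it. The median r for TMM-normalised CPM was -0.21 in KO and 0.41 in WT without the 2 farthest libraries of each. IAPEY4_LTR and IAPLTR3 had the fewest counts of the IAP names and the largest standard errors (0.60 and 0.27).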
